A study of Homo sapiens with 9 samples.

Results

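The 10 genes described here respond to growth factors, heat, oxidants or unfolded proteins: FOS, JUN, EGR1, IER2, ATF3, HSPA1A, HSPA1B, DNAJB1, HMOX1 and DDIT3. They were chosen by gene symbol, and all 10 were found among the 57820 genes of the count table. The libraries came from HEK293T, an established human embryonic kidney cell line, and 3 libraries each formed the Control, CBX1 and CBX1_W42A groups. In Chrom-seq, a domain that reads a histone mark is fused to SunTag peptide epitopes, and an antibody fragment (scFv) joined to the peroxidase APEX2 binds these epitopes, so that RNA near the reader becomes biotinylated. The CBX1 group carried the chromodomain of mouse CBX1, which binds trimethylated lysine 9 of histone H3 (H3K9me3), the CBX1_W42A group carried the same chromodomain with the change W42A, and the Control group carried SunTag without a reader. All groups were cotransfected with the scFv-APEX2 plasmid, driven by the chicken β-actin promoter, expressed the proteins for 48 hours, and were labeled in 500 μM biotin-aniline (30 min) with hydrogen peroxide (H2O2) at 1 mM (1 min). The groups therefore share the protocol of transfection and oxidant, and no untransfected or unlabeled cells are compared here. The descriptions of all 3 groups also carry the term NLS, which they do not explain. Whether the 3 groups were prepared at the same time is not known here. The CBX1_W42A libraries were registered apart from those of Control and CBX1, and a difference in preparation cannot be told apart from the group. The values are counts of streptavidin-captured, polyadenylated RNA, in which a higher level in the cells and a better capture cannot be told apart. The study describes its replicates as independent, and the labels do not say whether they are separate cultures, so p-values measure the spread between these libraries, which may in part be technical.

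Immediate early genes such as FOS, JUN and EGR1 are transcribed within minutes of a stimulus, without new protein synthesis, and encode transcription factors that switch on later genes. Heat and damaged proteins activate the factor HSF1, which induces chaperones of the HSP70 and HSP40 families, and oxidants release the factor NRF2 from KEAP1 to induce detoxifying enzymes such as HMOX1. Unfolded proteins and amino acid shortage act through the integrated stress response (ISR), in which the factor ATF4 induces ATF3 and DDIT3.

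None of the 10 genes was called enriched or depleted in any of the 3 comparisons, which ask whether the transfected groups differ in these response genes. The differences that did stand out from the replicate spread were smaller than 2-fold: with CBX1, ATF3 was lower than in Control and HMOX1 and DDIT3 were higher, with CBX1_W42A HMOX1 was higher than in Control, and ATF3 was lower with CBX1 than with CBX1_W42A. A call required an adjusted p below 0.05 by edgeR's quasi-likelihood test, adjusted by Benjamini-Hochberg over all tested genes, and a log2 fold change whose size reached 0.75. By this rule 0 of 10 genes were called in CBX1 against Control, where 7.4% of the 18837 tested genes were called. The count was 0 of 10 in CBX1_W42A against Control (0.996% of all tested genes) and 0 of 10 in CBX1 against CBX1_W42A (0.997%). DESeq2 called 0 in each comparison as well. With the adjusted p alone, the edgeR counts were 3, 1 and 1 of 10, against 20.1%, 2.62% and 2.24% of all tested genes. Of all tested genes, 10.6% were higher and 9.46% lower by that measure in the first comparison, 1.37% and 1.25% in the second and 1.32% and 0.925% in the third. At an unadjusted p below 0.05, the counts of the 10 genes were 5, 2 and 1. The share of all tested genes at that level was not computed, so these counts cannot be set against it. All 10 passed the filter on low counts in every comparison. The first and second comparison share the Control libraries, and the third shares libraries with both.

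Total counts ran from 8379542 to 11082852 per library. Levels are given as CPM, the count relative to the library total after scaling by edgeR's TMM factors. All 9 markers listed for HEK293T were above 1 CPM in every library. Of the 9 markers of other cell types, 8 were in the table: CD3E, INS and HBB had 0 counts, while COL3A1 reached 12 CPM. Of the 10 genes, 7 span less than 10 kb, and protein-coding genes of such spans were called in 4.4%, 0.742% and 1.12% of cases in the 3 comparisons.

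The upstream stretches below end at the base before the annotated start and were taken from RefSeq on GRCh38.p14, where 9 of the 10 genes had an entry (HMOX1 had none). FOS and EGR1 are shown because they varied together between libraries. JUN, which is not shown, varied with them at least as closely. HSPA1A and HSPA1B are shown because they are nearly the same sequence, and ATF3 and DDIT3 because they differed between groups. Capitals mark a serum response element in EGR1, a heat shock element in HSPA1A and HSPA1B, a C/EBP-ATF composite element in ATF3 and an AP-1 site in DDIT3.
FOS (chr14:75278578-75278827, + strand): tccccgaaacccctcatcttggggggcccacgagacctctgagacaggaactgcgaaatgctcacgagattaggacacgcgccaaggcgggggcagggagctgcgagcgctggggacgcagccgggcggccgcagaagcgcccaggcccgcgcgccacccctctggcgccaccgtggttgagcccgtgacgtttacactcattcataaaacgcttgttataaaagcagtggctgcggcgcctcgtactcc
EGR1 (chr5:138465229-138465478, + strand): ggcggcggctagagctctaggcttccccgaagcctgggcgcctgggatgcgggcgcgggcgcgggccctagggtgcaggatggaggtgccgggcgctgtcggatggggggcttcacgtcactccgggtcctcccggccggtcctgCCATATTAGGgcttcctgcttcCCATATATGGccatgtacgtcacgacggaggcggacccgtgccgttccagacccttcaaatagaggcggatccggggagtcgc
HSPA1A (chr6:31815293-31815542, + strand): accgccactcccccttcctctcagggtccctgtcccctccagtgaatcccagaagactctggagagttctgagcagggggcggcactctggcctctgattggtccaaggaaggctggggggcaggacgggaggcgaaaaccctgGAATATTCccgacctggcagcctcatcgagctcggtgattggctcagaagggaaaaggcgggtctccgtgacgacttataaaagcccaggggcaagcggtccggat
HSPA1B (chr6:31827488-31827737, + strand): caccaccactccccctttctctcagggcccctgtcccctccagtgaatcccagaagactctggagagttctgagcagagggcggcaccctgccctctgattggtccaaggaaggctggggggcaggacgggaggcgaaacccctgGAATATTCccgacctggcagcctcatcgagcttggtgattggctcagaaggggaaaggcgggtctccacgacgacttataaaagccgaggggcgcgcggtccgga
ATF3 (chr1:212565157-212565406, + strand): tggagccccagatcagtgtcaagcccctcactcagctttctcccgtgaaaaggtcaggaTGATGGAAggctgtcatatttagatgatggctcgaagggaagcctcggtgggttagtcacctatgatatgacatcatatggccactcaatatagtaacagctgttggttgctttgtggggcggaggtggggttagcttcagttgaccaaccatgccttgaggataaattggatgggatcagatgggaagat
DDIT3 (chr12:57520515-57520764, - strand): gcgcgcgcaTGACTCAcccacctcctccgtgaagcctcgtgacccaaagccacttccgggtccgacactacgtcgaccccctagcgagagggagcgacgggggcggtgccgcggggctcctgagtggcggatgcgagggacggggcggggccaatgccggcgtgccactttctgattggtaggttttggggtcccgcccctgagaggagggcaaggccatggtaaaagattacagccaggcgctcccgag

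Motifs were searched on both strands of windows that run from 250 bases before to 50 bases after a start. The 9 genes had 13 windows, as ATF3, DNAJB1 and DDIT3 had more than 1, and the stretches above show a single start per gene. A gene was counted if any of its windows matched, whereas the percentages are shares of single windows, so the 2 are not directly comparable. The heat shock element GAANNTTC was found in 4 of the 9 genes (JUN, HSPA1A, HSPA1B and DNAJB1) and in 6.77% of all 35116 promoters. EGR1 held 2 serum response elements (1.29% of all promoters), which begin at -105 and -83 from the start, and the windows of FOS and IER2 held none of the motifs. The AP-1 site TGANTCA was in DDIT3 (7.71% of all promoters) and the composite element TGATGNAA in ATF3 (3.62%). In ATF3 it lay in the window of the start shown above, and the other ATF3 window (chr1:212614768-212615067) held none of the motifs. No other stretch of the ATF3 span, 55.44 kb, was searched. The CRE TGACGTCA (1.85%), the antioxidant response element TGACNNNGC (13.35%) and the EGR site GCGTGGGCG (0.79%) were in none of the searched windows of the 9 genes. Matches of different motifs did not overlap, and a match here is a description of the sequence only. The 2 HSP70 promoters were 92.6% identical over 299 aligned bases, with the heat shock element beginning at -106 and -105 from the start.

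Per kb of gene span, the length the table lists, JUN had the highest level in every group, at 236 ± 20.6 CPM per kb (SD, n = 3) in Control. In Control it was followed by EGR1 (31.2), IER2 (29.2), FOS (9.83), DNAJB1 (9.61), DDIT3 (6.02), ATF3 (3.94), HMOX1 (3.55), HSPA1A (1.97) and HSPA1B (1.37). The ranges of mean ± SD overlapped for EGR1 and IER2, for FOS and DNAJB1, for ATF3 and HMOX1, and for HSPA1A and HSPA1B, so the order within these pairs is not resolved. JUN was the highest in all 3 groups. HSPA1A and HSPA1B had the lowest means in all 3, though with CBX1 the ranges of HSPA1A and ATF3 overlapped. Of the 100-base windows of HSPA1A, 71.4% also occur in HSPA1B, and the study's methods do not say how reads that fit both genes were counted. The levels of the pair may therefore be too low beside the other genes, which was not tested. Reads were counted over the whole span, and exons make up 98% of the span of JUN but 7.2% of that of ATF3, 16.6% of HMOX1 and 30.0% of DDIT3. Per kb of exon, ATF3 in Control moved from rank 7 to rank 2 with 54.7 CPM per kb, and 5 of the 10 ranks stayed the same.

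**Figure D1:**
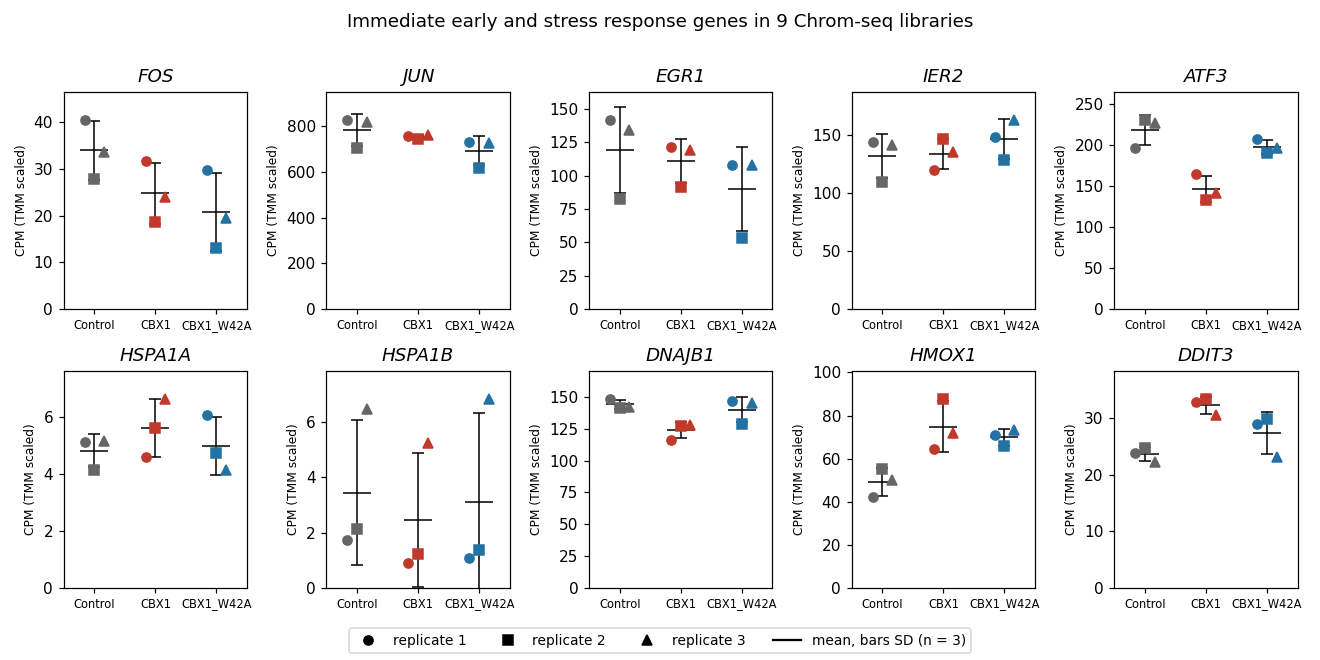
TMM-scaled CPM (vertical axes, linear from 0, a separate scale for each gene) of the 10 genes in the 3 libraries of each group, with circles, squares and triangles for replicates 1, 2 and 3, and a line and bars for the mean and SD. ATF3 lies lower in the 3 CBX1 libraries (134 to 165 CPM) than in all others, HMOX1 lies lower in the 3 Control libraries (42.1 to 55.0 CPM), and HSPA1B is highest in replicate 3 of each group.

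FOS, which pairs with JUN proteins in the transcription factor AP-1, lies on chromosome 14 from 75745477 to 75748933 of hg19 (plus strand). It had 40.5, 27.8 and 33.6 CPM in Control replicates 1 to 3, 31.7, 18.6 and 24.0 CPM with CBX1, and 29.7, 13.1 and 19.5 CPM with CBX1_W42A. Replicate 2 was the lowest library and replicate 1 the highest in every group, and the groups overlap. The log2 fold change against Control was -0.45 with CBX1 (standard error 0.17, 95% interval -0.80 to -0.09, adjusted p = 0.0693, edgeR quasi-likelihood test, Benjamini-Hochberg). With CBX1_W42A it was -0.70 (standard error 0.21, interval -1.13 to -0.27, adjusted p = 0.0683, same edgeR test). Neither passed the test, and both intervals lie below 0. Over the 16 alternatives planned, the adjusted p was below 0.05 in 5 with CBX1 and in 4 with CBX1_W42A. With no filter on low counts it was 0.00626 with CBX1 and 0.000501 with CBX1_W42A (edgeR). Without CBX1_W42A replicate 1, FOS was called in CBX1_W42A against Control, with a log2 fold change of -1.06 (adjusted p = 0.0141, edgeR). Between CBX1 and CBX1_W42A the log2 fold change was 0.23 (interval -0.22 to 0.67).

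JUN, the other partner of AP-1, lies on chromosome 1 from 59246465 to 59249785 (minus strand). It had 828, 705 and 819 CPM in Control, 759, 744 and 762 CPM with CBX1, and 733, 619 and 729 CPM with CBX1_W42A. The CBX1 libraries were close to each other and lay above all 3 CBX1_W42A libraries. Both reader groups overlapped with Control. The log2 fold change was -0.05 (interval -0.23 to 0.14) for CBX1 and -0.18 (interval -0.40 to 0.05) for CBX1_W42A against Control, and 0.10 (interval -0.11 to 0.32) between the 2 readers. The first of these was 0.04 with upper-quartile factors and 0.04 with the library size alone.

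EGR1, a zinc finger transcription factor, lies on chromosome 5 from 137801179 to 137805004 (plus strand). It had 142, 82.5 and 134 CPM in Control, 121, 91.8 and 119 CPM with CBX1, and 108, 53.3 and 108 CPM with CBX1_W42A. Replicate 2 was again the lowest of each group, at 0.599, 0.763 and 0.494 times the mean of the other 2 libraries in Control, CBX1 and CBX1_W42A. No EGR1 difference between groups passed the test, with log2 fold changes of -0.10 (interval -0.43 to 0.23), -0.41 (interval -0.84 to 0.01) and 0.28 (interval -0.08 to 0.65) in the 3 comparisons. With no filter on low counts, the adjusted p of EGR1 in CBX1_W42A against Control was 0.0232 (edgeR).

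IER2, a nuclear protein of the immediate early response, lies on chromosome 19 from 13261229 to 13265722 (plus strand). It had 144, 109 and 141 CPM in Control, 120, 146 and 135 CPM with CBX1, and 148, 128 and 163 CPM with CBX1_W42A. All groups overlapped, and the lowest library was not the same replicate in each. The 3 log2 fold changes were 0.03 (interval -0.20 to 0.26), 0.16 (interval -0.10 to 0.41) and -0.15 (interval -0.38 to 0.08). The first became -0.15 when replicate 2 was left out of both groups.

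ATF3, a bZIP factor that stress induces through ATF4 and other routes, lies on chromosome 1 from 212738676 to 212794119 (plus strand). It had 197, 231 and 228 CPM in Control, 165, 134 and 142 CPM with CBX1, and 208, 190 and 196 CPM with CBX1_W42A. The 3 CBX1 libraries were the lowest of the 9, and the Control and CBX1_W42A libraries overlapped. Against Control, ATF3 was 0.676 times as high with CBX1, or -0.56 on the log2 scale (standard error 0.10, interval -0.78 to -0.35, adjusted p = 0.00141, edgeR quasi-likelihood test, Benjamini-Hochberg). Against CBX1_W42A it was 0.732 times as high, or -0.45 on the log2 scale (standard error 0.11, interval -0.67 to -0.23, adjusted p = 0.0276, same edgeR test). That adjusted p was above 0.05 without CBX1 replicate 2 (0.0983), CBX1 replicate 3 (0.144), CBX1_W42A replicate 1 (0.0763) or CBX1_W42A replicate 3 (0.0641) in the edgeR fit. It was 0.0536 with replicate 2 left out of both groups and 0.273 with replicate 3 left out of both. The adjusted p against Control was 0.071 with replicate 3 left out of both groups (edgeR). In CBX1_W42A against Control the log2 fold change was -0.14 (interval -0.36 to 0.08). As the table counts reads of introns and exons together, spliced and unspliced ATF3 RNA cannot be told apart.

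HSPA1A and HSPA1B encode the stress-inducible HSP70 chaperone from neighbouring genes on chromosome 6 (plus strand), from 31783291 to 31785723 and from 31795512 to 31798031. Their spans were 95% identical over 2401 aligned bases, and 71.4% of the 100-base windows of HSPA1A also occur in HSPA1B. The split of reads between them, and the share of their reads that was counted, are therefore uncertain. HSPA1A had 5.12, 4.14 and 5.15 CPM in Control, 4.59, 5.61 and 6.62 CPM with CBX1, and 6.07, 4.73 and 4.11 CPM with CBX1_W42A, from 37 to 68 counts per library. The groups overlapped, and the log2 fold changes were 0.24 (interval -0.25 to 0.72), 0.06 (interval -0.46 to 0.58) and 0.15 (interval -0.35 to 0.66).

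HSPA1B had 1.74, 2.12 and 6.50 CPM in Control, 0.896, 1.23 and 5.26 CPM with CBX1, and 1.09, 1.37 and 6.85 CPM with CBX1_W42A, from 8 to 65 counts per library. Replicate 3 stood apart in every group, at 3.36, 4.93 and 5.59 times the mean of the other 2 libraries. HSPA1A did not share this, with replicate 3 at 1.11, 1.30 and 0.762 times the mean of the other 2. HSPA1B took 25.4%, 33.9% and 55.8% of the counts of the pair in Control (exact 95% binomial intervals 15.8% to 37.1%, 21.8% to 47.8% and 45.2% to 66.0%). With CBX1 the shares were 16.3%, 18% and 44.3% and with CBX1_W42A 15.2%, 22.4% and 62.5%. These intervals cover counting error only. The spread left the group differences of HSPA1B wide, at -0.40 (interval -1.56 to 0.76), -0.14 (interval -1.28 to 0.99) and -0.29 (interval -1.47 to 0.89) on the log2 scale. Without replicate 3 of both groups they were -0.84, -0.65 and -0.21, and without Control replicate 3 alone the first 2 were 0.40 and 0.66.

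DNAJB1, an HSP40 cochaperone that activates HSP70, lies on chromosome 19 from 14625582 to 14640582 (minus strand). It had 149, 142 and 142 CPM in Control, 116, 127 and 128 CPM with CBX1, and 147, 129 and 145 CPM with CBX1_W42A. The CBX1 libraries were all below those of both other groups, which overlapped with each other. The log2 fold change was -0.21 for CBX1 against Control (standard error 0.09, interval -0.40 to -0.03, adjusted p = 0.0998, edgeR) and -0.20 against CBX1_W42A (interval -0.41 to 0.02), and neither passed the test. For CBX1_W42A against Control it was -0.04 (interval -0.25 to 0.17), and it was 0.05 with upper-quartile factors.

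HMOX1, heme oxygenase 1, which degrades heme and is a target of NRF2, lies on chromosome 22 from 35776354 to 35790207 (plus strand). It had 42.1, 55.0 and 50.3 CPM in Control, 64.6, 87.7 and 71.7 CPM with CBX1, and 71.0, 65.7 and 73.3 CPM with CBX1_W42A. All 6 reader libraries were above all 3 Control libraries, and the 2 reader groups overlapped. HMOX1 was 1.53 times as high with CBX1 as in Control, or 0.61 on the log2 scale (standard error 0.12, interval 0.35 to 0.87, adjusted p = 0.00282, edgeR quasi-likelihood test, Benjamini-Hochberg). With CBX1_W42A it was 1.43 times as high, or 0.51 on the log2 scale (standard error 0.12, interval 0.26 to 0.76, adjusted p = 0.031, same edgeR test). The latter adjusted p was above 0.05 without Control replicate 1 (0.138), Control replicate 3 (0.0821), CBX1_W42A replicate 1 (0.0817) or CBX1_W42A replicate 3 (0.1) in the edgeR fit. With replicate 3 left out of both groups, the adjusted p was 0.0601 with CBX1 and 0.203 with CBX1_W42A (edgeR). Between CBX1 and CBX1_W42A the log2 fold change was 0.07 (interval -0.17 to 0.32).

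DDIT3, also called CHOP, a transcription factor of the ISR that promotes cell death under lasting stress, lies on chromosome 12 from 57910371 to 57914300 (minus strand). It had 23.9, 24.8 and 22.3 CPM in Control, 32.9, 33.4 and 30.6 CPM with CBX1, and 29.0, 29.9 and 23.1 CPM with CBX1_W42A. The CBX1 libraries were the 3 highest, and CBX1_W42A replicate 3 lay within the Control range. With CBX1, DDIT3 was 1.37 times as high as in Control, or 0.46 on the log2 scale (standard error 0.11, interval 0.22 to 0.69, adjusted p = 0.0101, edgeR quasi-likelihood test, Benjamini-Hochberg). With replicate 3 left out of both groups, the adjusted p was 0.0983 (edgeR). The log2 fold change was 0.21 (interval -0.08 to 0.50) for CBX1_W42A against Control and 0.22 (interval -0.05 to 0.49) for CBX1 against CBX1_W42A.

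**Figure D2:**
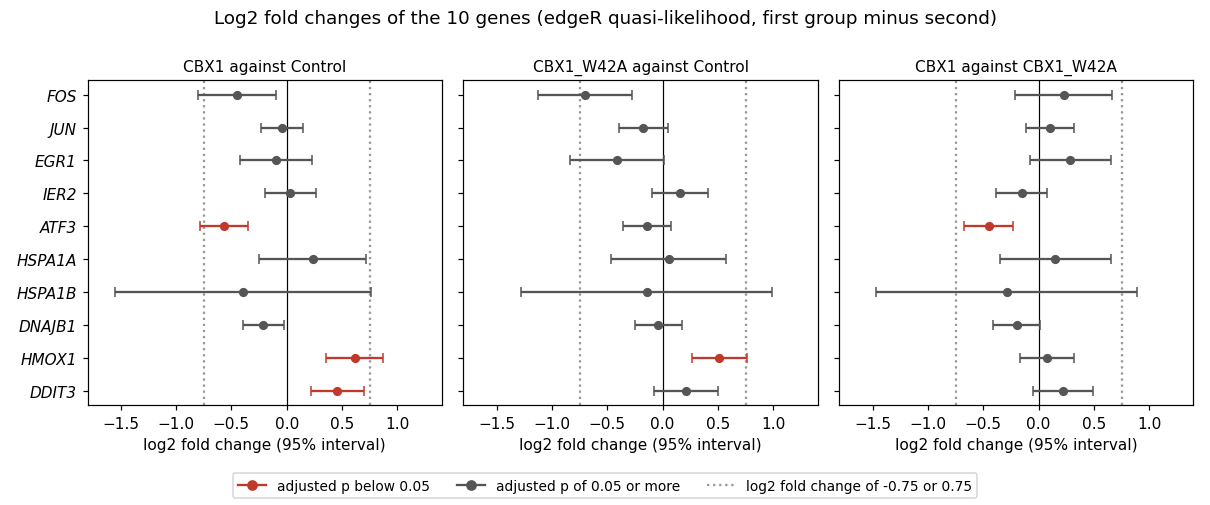
Log2 fold change (horizontal axis, first group minus second) of the 10 genes in the 3 comparisons, with bars for the 95% interval and dotted lines at -0.75 and 0.75, the size a call requires. Red marks an adjusted p below 0.05, which ATF3, HMOX1 and DDIT3 reached in CBX1 against Control, HMOX1 in CBX1_W42A against Control and ATF3 in CBX1 against CBX1_W42A, all between the dotted lines.

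Over the 10 genes, the median log2 fold change was -0.07 in CBX1 against Control, -0.09 in CBX1_W42A against Control and 0.09 in CBX1 against CBX1_W42A, beside 0.03, 0.01 and -0.004 over all tested genes. The libraries of the groups did not overlap for 4 of 10 genes in CBX1 against Control (ATF3, DNAJB1, HMOX1 and DDIT3; 37.9% of all tested genes). They did not overlap for 1 of 10 in CBX1_W42A against Control (HMOX1; 24.8%) and for 4 of 10 in CBX1 against CBX1_W42A (JUN, ATF3, DNAJB1 and DDIT3; 21%). In 1 test over all 9 libraries of whether a gene differed between any of the 3 groups, 3 of 10 passed, against 15.6% of the 19000 genes tested. These were ATF3 (adjusted p = 0.00218), HMOX1 (adjusted p = 0.00453) and DDIT3 (adjusted p = 0.0466, edgeR quasi-likelihood test, Benjamini-Hochberg). The adjusted p of DDIT3 in this edgeR test was above 0.05 without Control replicate 1 (0.11), 2 (0.0652) or 3 (0.152) or CBX1 replicate 1 (0.122), 2 (0.128) or 3 (0.0917). That of FOS, 0.0624, was below 0.05 without Control replicate 2 (0.0412), CBX1 replicate 1 (0.0462) or CBX1_W42A replicate 1 (0.00789) in the same edgeR test. With no filter on low counts, FOS (adjusted p = 7.15e-05) and EGR1 passed this edgeR test and DDIT3 (0.0617) did not.

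Other genes of the same pathways, 134 in 4 lists, placed the 10 genes in context. In CBX1 against Control, 22 of 125 tested list genes were lower at an adjusted p below 0.05 and 0 were higher by edgeR's quasi-likelihood test. Over all tested protein-coding genes, 12.1% were lower and 8.41% higher by the same measure. DESeq2 gave 22 lower and 0 higher. The split was 13 lower and 3 higher both with the library size alone and with upper-quartile factors. It was 17 lower and 2 higher with the filterByExpr filter, and 25 and 1 with no filter. Over the edgeR fits that leave out 1 library the count of lower genes was 12 (without CBX1 replicate 1), 13 (without CBX1 replicate 3) or 15 (without Control replicate 1). It was 16 (without Control replicate 3, with 1 gene higher), 18 (without CBX1 replicate 2, with 1 higher) or 23 (without Control replicate 2, with 4 higher). The count of lower genes was 4 when replicate 3 was left out of both groups, and 22, with 6 higher, when replicate 2 was.

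Among 37 tested immediate early genes, 4 were lower with CBX1 than in Control: PLK3, a polo-like kinase (log2 fold change -0.69), FOSL1, an AP-1 partner of JUN (-0.54), KLF6, a zinc finger factor (-0.36), and CYR61, a secreted matrix protein (-0.35). The median of the list was -0.18, and its share of lower genes, 10.8%, was below the 12.1% of all tested protein-coding genes. Of 27 tested heat shock genes, 8 were lower, among them the HSP110 family members HSPH1 (-0.56), HSPA4 (-0.46) and HSPA4L (-0.45), the cochaperone BAG3 (-0.34) and the constitutive HSP70 HSPA8 (-0.28), with a list median of -0.20 and a share of 29.6%. HSPB8, a small heat shock protein, was the only list gene past both thresholds in this comparison. It had 19.9, 18.7 and 17.4 CPM in Control, 8.40, 13.2 and 11 CPM with CBX1, and 14.0, 11.3 and 13.1 CPM with CBX1_W42A, with all reader libraries below Control. Its log2 fold change with CBX1 was -0.77 (standard error 0.16, adjusted p = 0.00387, edgeR), and leaving out CBX1 replicate 1 or Control replicate 1 gave -0.62 or -0.72, under the minimum of 0.75. It was also under the minimum with the library size alone (-0.68), upper-quartile factors (-0.69) and the filterByExpr filter (-0.749), and leaving replicate 3 out of both groups gave an adjusted p of 0.0601 (edgeR).

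HMOX1 and DDIT3 were higher with CBX1 than in Control. With TMM factors, the study's filter and all 6 libraries, 0 of the other tested genes of their pathway lists were higher at an adjusted p below 0.05. Of 27 tested genes of the NRF2 and oxidant response list, 4 were lower with CBX1 than in Control, among them the factor NFE2L2 (NRF2) itself (-0.53), SESN2 (-0.53) and the NRF2 inhibitor KEAP1 (-0.31). This share of 14.8% is near that of all tested protein-coding genes. Whatever the adjusted p, 10 of the 27 had a positive log2 fold change and 17 a negative one. FTL had 0.40 (adjusted p = 0.061, edgeR). Of 34 tested ISR and unfolded protein response genes, 6 (17.6%) were lower: GADD45A (-0.72), asparagine synthetase ASNS (-0.59), CEBPG (-0.53), the mitochondrial folate enzyme MTHFD2 (-0.48), XBP1, whose spliced form drives the unfolded protein response (-0.39), and PPP1R15A, which restores translation after stress (-0.36). ATF3 (-0.56) had the sign of these 6, and DDIT3 the opposite sign. Of all 34, the log2 fold change was positive in 6 and negative in 28, with CRELD2 at 0.29 (adjusted p = 0.0567, edgeR).

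In CBX1_W42A against Control, 3 of 127 tested list genes were lower at an adjusted p below 0.05 and 0 were higher, beside 1.61% and 1.11% of all tested protein-coding genes. These were HSPA4L (log2 fold change -0.46), HSPA4 (-0.40) and ASNS (-0.50). DESeq2 gave 6 lower and 1 higher, with the library size alone the split was 0 lower and 1 higher, and with upper-quartile factors 0 and 2. The edgeR count of lower genes was 0 without Control replicate 1, Control replicate 3 or CBX1_W42A replicate 3, and 1 without Control replicate 2 or CBX1_W42A replicate 1. Without CBX1_W42A replicate 1, 1 list gene was higher.

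In CBX1 against CBX1_W42A, 8 of 127 tested list genes were lower and 0 higher at an adjusted p below 0.05, beside 1.16% and 1.38% of all tested protein-coding genes. With the library size alone the split was 6 lower and 1 higher. The most different of the 8 was EGR2, an EGR1 relative, which had 6.28, 4.58 and 6.37 CPM in Control, 3.47, 3.93 and 3.60 CPM with CBX1, and 8.96, 8.09 and 11.3 CPM with CBX1_W42A. Its CBX1 libraries were the lowest and its CBX1_W42A libraries the highest of the 9. The log2 fold change between the readers was -1.38 (standard error 0.22, adjusted p = 0.00187, edgeR quasi-likelihood test, Benjamini-Hochberg). It was the only list gene called here, and its adjusted p in the edgeR fit was 0.0751 when replicate 3 was left out of both groups. The others were KLF10 (-0.69), the ferritin chain FTH1 (-0.58), GADD45A (-0.52), NFE2L2 (-0.48), CEBPG (-0.45), the secreted protein STC2 (-0.41) and BAG3 (-0.39). The edgeR count of lower genes was 4 without CBX1 replicate 1 or 2, 2 without CBX1 replicate 3, 5 without CBX1_W42A replicate 3, 6 without CBX1_W42A replicate 1 or 2, and 0 when replicate 3 was left out of both groups. Without CBX1_W42A replicate 1, 3 list genes were higher, and without CBX1 replicate 2, 1 was.

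**Figure D3:**
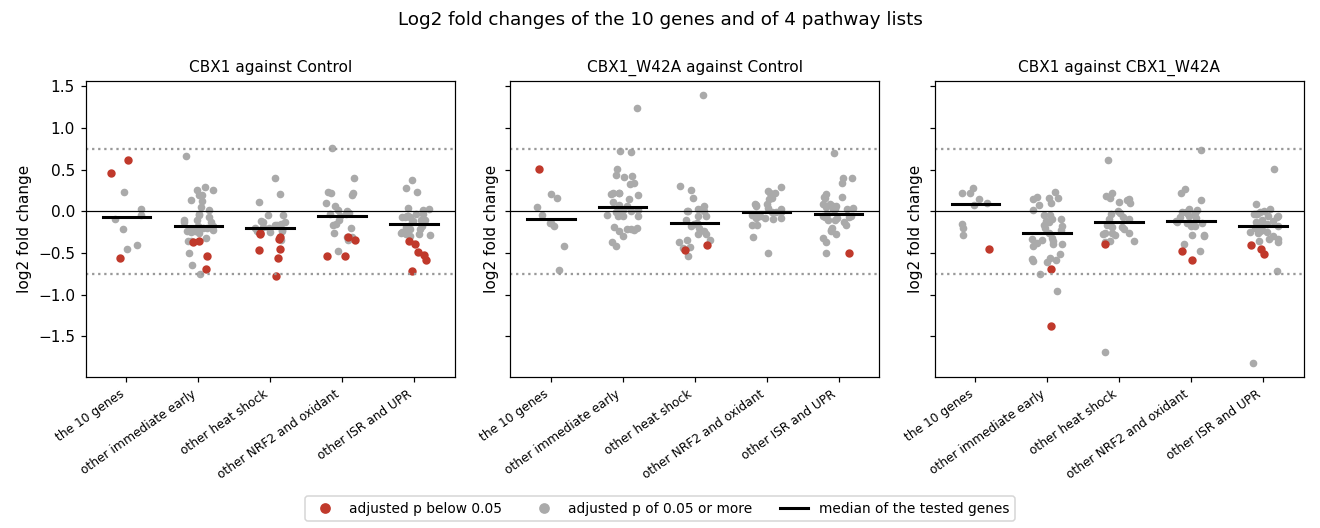
Log2 fold change (vertical axis) of the 10 genes and of the tested genes of the 4 pathway lists in the 3 comparisons, with 1 point per gene, red for an adjusted p below 0.05, and a black line at the median. In CBX1 against Control the 22 red points of the 4 lists all lie below 0, while 2 of the 3 red points of the 10 genes lie above it (with the library size alone, 13 list genes were lower and 3 higher).

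The most highly counted genes of each list showed how far abundant stress RNAs varied. HSP90AA1, the stress-inducible cytosolic HSP90, had 5720, 4766 and 4364 CPM in Control, 3104, 4805 and 3737 CPM with CBX1, and 4727, 4873 and 4206 CPM with CBX1_W42A, and the groups overlapped. HSP90AB1, the constitutive form, had means of 2839 CPM in Control, 2530 CPM with CBX1 and 2243 CPM with CBX1_W42A. FTH1 ranged from 811 to 1018 CPM in Control, from 636 to 824 CPM with CBX1 and from 951 to 1395 CPM with CBX1_W42A. SOD1, the cytosolic superoxide dismutase, had means of 230.0, 213 and 228 CPM. The endoplasmic reticulum chaperones CALR and HSP90B1 had 866, 874 and 896 CPM and 827, 729 and 863 CPM on average. MCL1, an inhibitor of apoptosis, had means of 151, 128 and 129 CPM, and SRF, the factor that binds serum response elements, had 115, 116 and 133 CPM. None of MCL1, SRF, HSP90AA1, HSP90AB1, SOD1, CALR and HSP90B1 passed the edgeR test at an adjusted p below 0.05 in any of the 3 comparisons.

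Across the 9 libraries, EGR1 and JUN varied most alike among the 10 genes, with a Pearson correlation of log2 CPM of 0.96, followed by FOS with JUN (0.83) and FOS with EGR1 (0.83). ATF3 and DNAJB1 correlated at 0.69 and HMOX1 and DDIT3 at 0.66, whereas DDIT3 ran opposite to DNAJB1 (-0.81) and to ATF3 (-0.78). HSPA1A and HSPA1B correlated at -0.04. Among the 10613 genes whose mean count reached 100, those closest to JUN, the most highly counted of the 10, were PRDM10 (0.96), SH3PXD2A (0.96) and EGR1 (0.96). These values describe 9 points that share library depth and group, and no test was made on them.

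**Figure D4:**
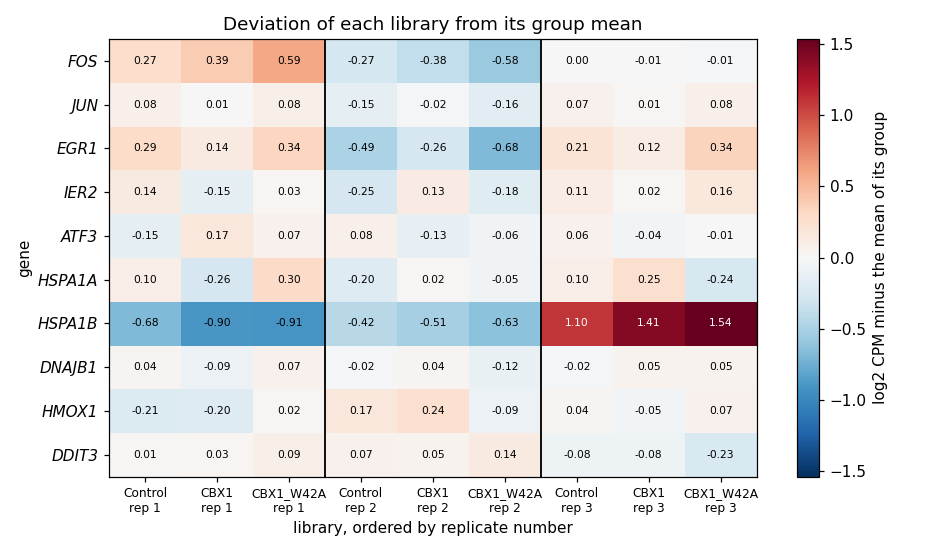
Log2 CPM of each gene minus the mean of its group (color scale and printed values) in the 9 libraries, ordered by replicate number. FOS and EGR1 are below their group mean in the 3 libraries of replicate 2, and HSPA1B is above it in the 3 libraries of replicate 3 by 1.10, 1.41 and 1.54.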

How the data were processed

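Chrom-seq counts from 9 HEK293T libraries were used. The authors used fastp 0.23.1 for trimming, HISAT2 2.1.0 for alignment to hg19 and featureCounts 2.0.1 with GENCODE v19, and deposited raw counts per gene. The listed length of all 57820 genes is the span, so introns were counted. Genes inside another gene of the same strand had no counts (0 of 7910), whereas 3771 of 9345 (40.4%) inside a gene of the opposite strand had counts, so strand was used.

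A gene entered a test if its sum of counts exceeded 18 in the 6 libraries compared (27 in all 9). edgeR (version 4.0.16, in R 4.3.3) with TMM factors, its quasi-likelihood test and Benjamini-Hochberg adjustment was used. DESeq2 (version 1.42.0) was an alternative. The fold minimum and the filter follow the study's methods. Correlations used log2 CPM with a prior count of 2. Exon lengths came from a later GENCODE annotation on the same build. Replicates differed by more than sampling noise (chi-square per degree of freedom 4.65 to 11.4).

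The 10 genes and the lists were chosen with earlier results of these data known. The text names the 10 genes, list genes past both thresholds, the 2 most highly counted genes of each list and the 3 genes most like JUN. Other list genes were named after their values were seen, and some genes of the lists are not reported here. Alternatives were other scaling, filters, fits and fold minimum, removal of a lowess trend with gene span, a replicate block and leaving out each library. Leaving replicate 2 or 3 out of both groups, the block for the lists and the test of replicate number were chosen after seeing the data.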

Additional observations from a re-analysis of the deposited data

How the results depend on the processing

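Without a minimum fold change, the counts of the 10 genes were 3, 1 and 1 in CBX1 against Control, CBX1_W42A against Control and CBX1 against CBX1_W42A. For the lists they were 4 immediate early, 8 heat shock, 4 oxidant and 6 ISR genes in the first comparison, 2 heat shock and 1 ISR gene in the second, and 2, 1, 2 and 3 in the third. With the trend with gene span removed, 1 immediate early and 1 ISR gene were called in the first comparison, and 1 of the 10 genes in the second (FOS, -0.82). Leaving out 1 library, 0 to 1 of the 10 genes were called in the second comparison. Per kb of exon, 5 of 10 ranks were kept. The cause was not tested for any of these.

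Some small log2 fold changes turned direction. In CBX1 against Control, JUN was 0.037 with upper-quartile factors and 0.041 with the library size alone, and IER2 was -0.080 without the span trend and -0.15 without replicate 2. In CBX1_W42A against Control, DNAJB1 was 0.048, 0.034 and 0.012 with upper-quartile factors, with the library size alone and without replicate 2, and HSPA1A was -0.10 without the span trend. In CBX1 against CBX1_W42A, HMOX1 was -0.087 without replicate 2 and HSPA1A -0.11 without replicate 3. Leaving out 1 library, ranges crossing 0 were EGR1 -0.31 to 0.045, IER2 -0.086 to 0.11 and HSPA1B -1.64 to 0.40 in the first comparison. They were HSPA1A -0.12 to 0.18, HSPA1B -1.46 to 0.66 and DNAJB1 -0.074 to 0.018 in the second, and HSPA1B -1.53 to 1.02, HMOX1 -0.051 to 0.17 and FOS -0.0010 to 0.59 in the third. The differences of ATF3, HMOX1 and DDIT3 in CBX1 against Control kept their sign and an adjusted p of at most 0.0152, 0.0164 and 0.0439 over the 16 alternatives planned, by edgeR or DESeq2. With replicate 3 left out of both groups, which leaves 2 libraries against 2 and was chosen after seeing the data, they kept their sign and the adjusted p was 0.071, 0.0601 and 0.0983 (edgeR).

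Over 19000 genes, the deviations of same-numbered libraries were nearly uncorrelated, from -0.0776 to 0.0772 over 9 pairs. The 18 pairs with different numbers ran from -0.124 to 0.0922. A correlation over all genes does not show whether a smaller set of genes follows the replicate number. In the edgeR test of that number described below, 26 genes had an adjusted p below 0.05. With the replicate block, 5 of the 10 genes differed between the 3 groups, and 0 were called in each pairwise comparison. The share of all tested genes that differed between the 3 groups with the block was not computed, so the 5 cannot be set against it. FOS then had an adjusted p of 0.0293 in CBX1 against Control and 0.0136 in CBX1_W42A against Control, and EGR1 of 0.0383 in the latter (edgeR). The log2 fold change of FOS in CBX1_W42A against Control was then -0.748, just under the minimum size of 0.75. Over all genes the block called 1021 higher and 46 lower in the first comparison, 201 and 4 in the second and 250 and 66 in the third, in place of 1330 and 64, 182 and 4, and 154 and 39. Of the list genes, 14, 4 and 16 were lower at an adjusted p below 0.05 with the block, in place of 22, 3 and 8. HSPA1A and HSPA1B had 8 to 68 counts per library, so their fold changes are imprecise, and why these counts are low was not tested.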

Other observations

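After the replicate numbers were seen to go with FOS, EGR1 and HSPA1B, the number was tested beside the group over the 9 libraries by edgeR's quasi-likelihood test, adjusted by Benjamini-Hochberg. Of the 10 genes, 3 passed: HSPA1B (adjusted p = 0.00112), EGR1 (adjusted p = 0.017) and FOS (adjusted p = 0.0297), beside 0.137% of the 19000 genes tested (26 genes). At an unadjusted p below 0.05 there were 862 genes. One more of the 26 was in the pathway lists, NR4A1, an immediate early nuclear receptor (adjusted p = 0.0305, edgeR), with 44.9, 28.4 and 43.9 CPM in Control, 47.8, 36.1 and 54.4 CPM with CBX1, and 41.6, 29.9 and 51.3 CPM with CBX1_W42A. Like EGR1 and FOS, it was lowest in replicate 2 of every group.

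Of the 26 genes, 23 were highest in replicate 3 of every group, HSPA1B among them, the other 3 being EGR1, FOS and NR4A1. In replicate 2 of every group, 12 of the 26 were lowest. The labels do not say what the replicate number stands for, and the same pattern in all 3 groups was not tested against any cause.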
